A study of Homo sapiens with 20 samples.

Results

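The cyclin-dependent kinase (CDK) inhibitors of the CIP/KIP and INK4 families are small proteins that bind CDKs or cyclin–CDK complexes. The 7 genes were taken by name as the complete families: CDKN1A, CDKN1B and CDKN1C for CIP/KIP, and CDKN2A, CDKN2B, CDKN2C and CDKN2D for INK4. They are 7 of 34439 mRNA and lncRNA genes with transcripts in the deposited files, and all 7 were among the 27697 genes tested. The samples are of NGP, a human neuroblastoma cell line, with 10 replicates given nutlin-3 as an 8 µM racemic mixture and 10 replicates given ethanol, the solvent, as vehicle. Both groups are cultures of the same line, so that the results are of 1 cell line. The study describes the replicates as biological, and the duration of treatment is not given in the sources used here. Poly(A) RNA was sequenced as paired-end reads from stranded libraries, and the values deposited are kallisto estimates per transcript.

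Progress through the cell cycle is driven by cyclins bound to CDKs. The INK4 proteins bind CDK4 and CDK6 themselves and keep them from pairing with D-type cyclins, which leaves the retinoblastoma protein in the form that holds E2F factors inactive. The CIP/KIP proteins bind whole cyclin–CDK complexes and inhibit those with CDK2 most clearly. CDKN2A stands apart because it encodes p16INK4a from one first exon and, from another first exon further upstream and another reading frame, the ARF protein, which binds MDM2 instead of a CDK. Nutlin-3 occupies the pocket of MDM2 in which p53 is held, and CDKN1A, which encodes p21, is a classical target gene of p53. The comparison of nutlin with vehicle therefore addresses how the whole set of CDK inhibitor genes stands when MDM2 is occupied.

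The depth, as the sum of estimated counts per sample, was 14455477 to 19532971 in vehicle and 15078052 to 17442896 in nutlin. No 2 samples held the same values, and the correlation of log2 CPM within a condition lay between 0.980 and 0.989. All 10 markers of sympathetic neuroblastoma cells had a mean of at least 1 TPM (transcript abundance scaled by length and library size), with a sum of 4041 to 4845 TPM in vehicle and 4478 to 5503 TPM in nutlin. Markers of other cell types were low: the 5 fibroblast markers summed to 4.77 to 9.03 TPM in vehicle and 8.39 to 12.5 TPM in nutlin, the 4 epithelial markers to 0.365 to 1.20 TPM and 1.16 to 2.59 TPM, the 3 endothelial markers to at most 1.20 TPM, and the 4 leukocyte markers, of which 1 was at 0 in all samples, to at most 0.809 TPM. The part of these other markers in the results below was not tested. MDM2 itself served as the check of the treatment, with 199 to 290 TMM-normalised CPM (counts scaled by library size) in vehicle and 4797 to 6005 in nutlin, a log2 fold change (LFC) of 4.51 ± 0.070 (SE).

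Sequences just upstream of starts on which the results turn are shown first. They are the 250 bases before RefSeq transcript starts on GRCh38.p14, written 5′ to 3′ on the strand of the gene, for CDKN1A, the member that rose most, for the p16 side of CDKN2A and for 2 starts of CDKN2C, which are described apart below. The RefSeq window on the ARF side (chr9:21995325-21995574) is not shown, because the main ARF transcripts in these data, CDKN2A-210 and CDKN2A-214, begin at 21994411 and 21994392, well downstream of it. Capitals mark matches, on either strand, to any of 4 motifs: the GC box GGGCGG, the E2F-type element TTTNNCGC, the cell cycle element CHR (TTTGAA) and the TATA box TATAAA. Neighbouring matches may overlap.
CDKN1A (chr6:36678464-36678713, plus strand): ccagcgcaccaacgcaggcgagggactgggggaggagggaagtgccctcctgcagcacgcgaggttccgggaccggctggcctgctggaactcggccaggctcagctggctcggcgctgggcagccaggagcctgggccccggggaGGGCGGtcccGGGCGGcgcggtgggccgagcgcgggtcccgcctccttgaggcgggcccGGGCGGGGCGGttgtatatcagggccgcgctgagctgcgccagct
CDKN2A, p16 side (chr9:21974858-21975107, minus strand): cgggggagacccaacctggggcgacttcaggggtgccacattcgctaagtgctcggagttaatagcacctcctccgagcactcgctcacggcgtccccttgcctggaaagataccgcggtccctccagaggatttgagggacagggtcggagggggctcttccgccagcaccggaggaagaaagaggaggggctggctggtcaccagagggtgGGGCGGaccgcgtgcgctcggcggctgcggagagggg
CDKN2C, start 1 (chr1:50960495-50960744, plus strand): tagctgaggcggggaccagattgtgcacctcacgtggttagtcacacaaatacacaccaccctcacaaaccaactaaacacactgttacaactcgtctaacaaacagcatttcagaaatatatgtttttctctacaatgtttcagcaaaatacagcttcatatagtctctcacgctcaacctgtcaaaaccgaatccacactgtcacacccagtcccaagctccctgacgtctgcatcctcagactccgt
CDKN2C, start 2 (chr1:50968456-50968705, plus strand): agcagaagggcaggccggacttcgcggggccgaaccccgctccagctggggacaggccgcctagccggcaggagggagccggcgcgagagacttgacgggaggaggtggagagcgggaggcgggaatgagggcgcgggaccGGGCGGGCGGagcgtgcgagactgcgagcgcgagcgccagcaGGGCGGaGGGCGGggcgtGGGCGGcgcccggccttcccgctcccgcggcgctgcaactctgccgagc
The GC box was the only one of the 4 motifs found in these 4 windows. It matched 4 times before CDKN1A, 5 times at the second CDKN2C start, and once at the p16 side of CDKN2A, whereas the first CDKN2C start held no match. The first CDKN2C window was 45.6% G and C and the second 77.2%, against a median of 58% over the 35116 RefSeq promoters. Of those promoters, 42.6% held a GC box in the same 250 bases, 5.92% an E2F-type element, 13.3% a CHR and 10.7% a TATA box. Among the 9 windows listed for the members, the single E2F-type match was before CDKN2D. A match describes the letters of the window only. RefSeq windows were found for 6 of the 7 genes, and CDKN1C had none in the table used.

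In vehicle, CDKN2A was the most abundant CDK inhibitor transcript and CDKN1A stood in the middle of the order, and in nutlin CDKN1A was above all others. On the TPM scale, which is per length and so allows genes to be compared, the means in vehicle were 183 ± 12.3 (SD, n = 10) for CDKN2A, 22.5 ± 4.16 for CDKN1B, 18.5 ± 5.86 for CDKN1A, 13.9 ± 1.47 for CDKN2D, 8.20 ± 0.675 for CDKN1C, 2.76 ± 0.449 for CDKN2C and 1.63 ± 0.254 for CDKN2B. The vehicle ranges of CDKN1B and CDKN1A overlapped, with CDKN1B the higher in 7 of 10 samples, and so did those of CDKN1A and CDKN2D, with CDKN1A the higher in 6 of 10. All other neighbours in this order were apart in every sample.

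In nutlin the order of mean TPM was CDKN1A with 955 ± 101 (SD, n = 10), CDKN2A with 110 ± 7.31, CDKN1C with 14.4 ± 1.06, CDKN1B with 11.3 ± 1.35, CDKN2D with 7.03 ± 0.770, CDKN2B with 5.17 ± 0.958 and CDKN2C with 0.345 ± 0.0912. CDKN1C thus stood above CDKN1B and CDKN2B above CDKN2C, both the other way round than in vehicle. The ranges of CDKN1C and CDKN1B overlapped, as did those of CDKN2D and CDKN2B, although within each of the 10 samples the former was the higher. The same orders were obtained from TMM CPM divided by effective length.

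**Figure D1:**
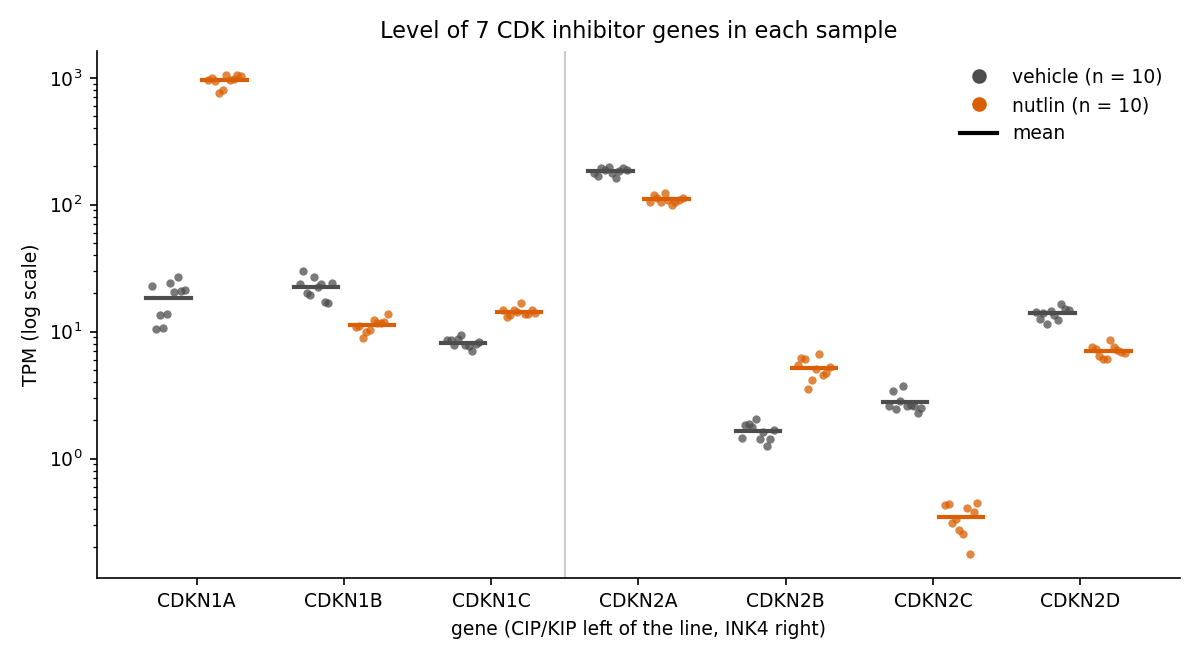
TPM (log axis) of each of the 7 CDK inhibitor genes in 10 vehicle (grey) and 10 nutlin (orange) samples, with 1 point per sample and a line at the mean. CDKN1A moves from 10.6 to 27.0 TPM in vehicle to 763 to 1057 TPM in nutlin, and CDKN2C from 2.28 to 3.72 TPM to 0.177 to 0.448 TPM.

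The 7 genes together summed to 251 ± 12.2 TPM in vehicle and 1103 ± 102 TPM in nutlin, without overlap. The CIP/KIP genes summed to 38.9 to 55.0 TPM in vehicle and 788 to 1085 TPM in nutlin, whereas the INK4 genes summed to 178 to 219 TPM and 114 to 134 TPM. The higher CIP/KIP sum in nutlin came from CDKN1A, since CDKN1B and CDKN1C together held 24.1 to 38.4 TPM in vehicle and 22.4 to 29.3 TPM in nutlin. Without CDKN1A, the other 6 genes went from 232 ± 12.3 TPM to 148 ± 6.90 TPM. CDKN2A made up 73.1% ± 2.52 (SD) of the pool in vehicle and 10.1% ± 1.29 in nutlin, and CDKN1A 7.36% ± 2.29 and 86.5% ± 1.40.

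**Figure D2:**
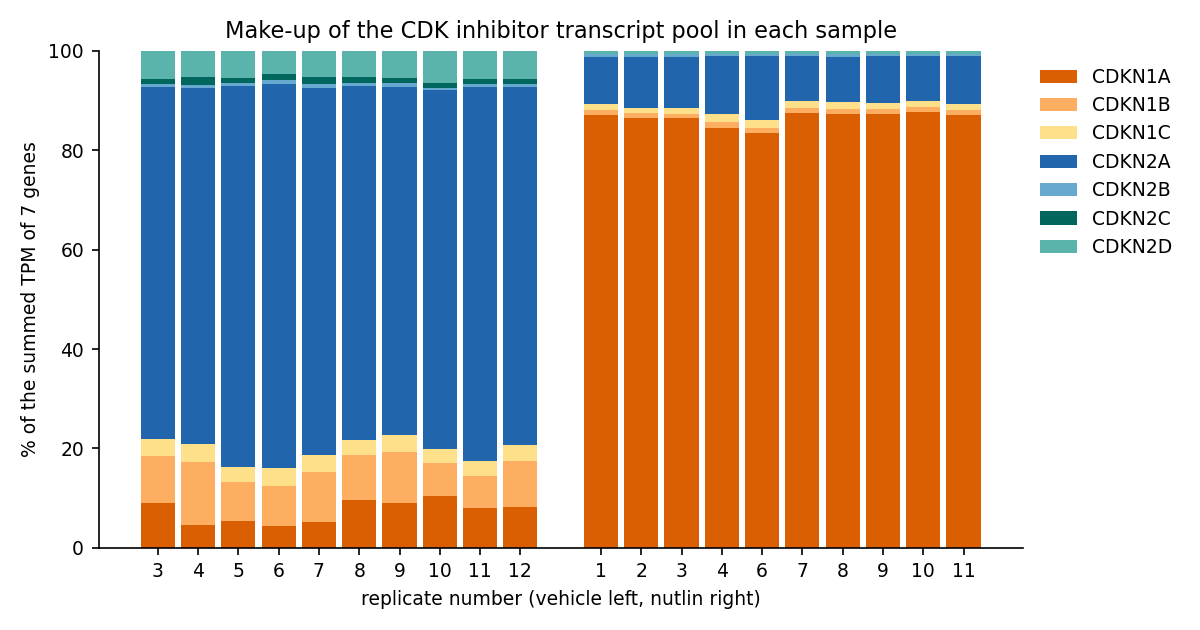
Share of each gene in the summed TPM of the 7 CDK inhibitor genes, in percent, with 1 stacked bar per sample. CDKN2A holds between 70.1% and 77.4% of every vehicle sample and CDKN1A between 83.4% and 87.7% of every nutlin sample.

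Between the conditions, all 7 genes were called significantly differentially expressed (SDE) at 5% FDR by edgeR's quasi-likelihood test, with 3 rising (CDKN1A, CDKN1C and CDKN2B) and 4 falling (CDKN1B, CDKN2A, CDKN2C and CDKN2D). This stands against a background in which 32.3% of all genes tested were called up and 26.5% were called down, so that a call by itself sets these genes little apart. In all 7 genes no nutlin sample overlapped with a vehicle sample in TMM CPM, whereas over all genes every nutlin sample was above every vehicle sample for 12.2% and below for 16.6%. The median LFC of the 7 genes was −0.72, beside 0.19 for all genes tested. As in any bulk sample, fewer cells that express a gene and less RNA per cell cannot be told apart. Of all calls, 54.9% were up with TMM and 67.7% with scaling by library totals only, which moved the median LFC of all genes by 0.18. The direction and the call of the 7 genes were the same under both scalings.

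**Figure D3:**
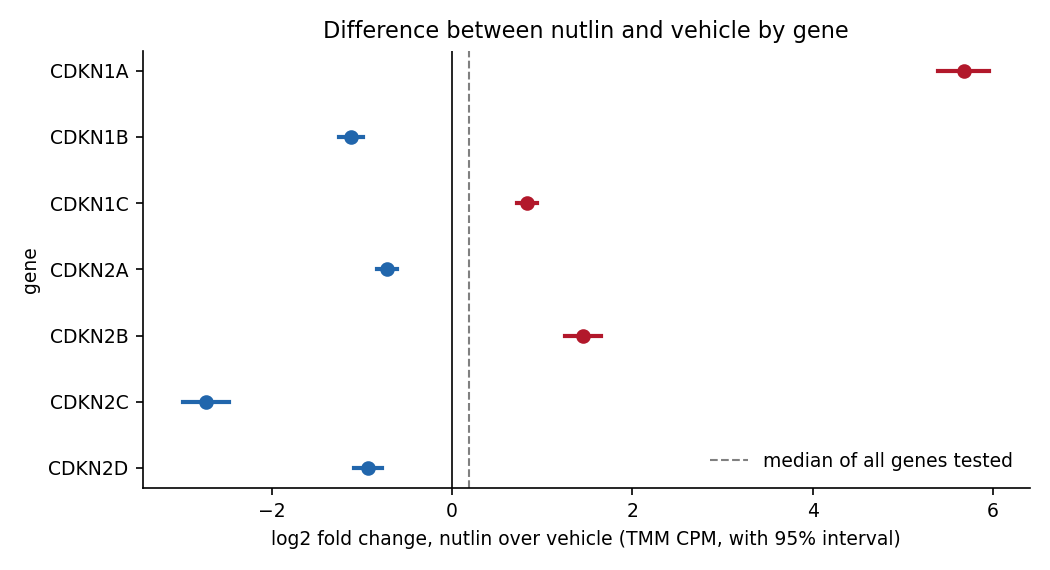
LFC of nutlin over vehicle (TMM CPM) of the 7 CDK inhibitor genes with 95% intervals from the edgeR fit over 20 samples, and the median of all genes tested as a dashed line. The intervals of CDKN1A, CDKN1C and CDKN2B (red) lie above 0 and those of the other 4 genes (blue) below 0.

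CDKN1A (ENSG00000124762, GRCh38 chr6:36676460-36687337, plus strand) encodes p21, which inhibits CDK2 complexes and also binds the replication clamp PCNA. Its lowest, median and highest values were 18.8, 35.4 and 54.9 TMM CPM in vehicle and 1318, 1704 and 1833 TMM CPM in nutlin. The lowest nutlin sample was thus far above the highest vehicle sample. The LFC was 5.68 ± 0.145 (SE), a 51.1-fold rise with a 95% interval of 42.0 to 62.2 (adjusted p = 3.85e-24). By LFC it had rank 64 from the top among the 27697 genes. DINOL, a lncRNA on the opposite strand that shares 146 of the 2996 exon bases of CDKN1A, was not analysed here.

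CDKN1A varied more between vehicle samples than between nutlin samples, with a coefficient of variation of 34.3% in vehicle and 9.47% in nutlin on the TMM CPM scale. The vehicle values fell on either side of a gap: vehicle replicates 4, 5, 6 and 7 lay between 18.8 and 23.1 TMM CPM and the other 6 between 34.7 and 54.9. The fold between the mean CPM of the conditions was 55.3 without vehicle replicate 10, the highest, and 48.8 without vehicle replicate 4, the lowest. MDM2 did not share this order, since vehicle replicate 4 was lowest in CDKN1A and highest in MDM2.

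CDKN1B (ENSG00000111276, chr12:12685498-12722369, plus strand) encodes p27, whose amount is set largely by its breakdown through SCF–SKP2. Vehicle samples held 38.8, 46.0 and 60.7 TMM CPM (lowest, median, highest) and nutlin samples 19.1, 23.1 and 24.6. Every nutlin sample was below every vehicle sample, and the highest vehicle samples were replicates 7 and 4. The LFC was −1.11 ± 0.068 (SE), 2.17-fold lower in nutlin with a 95% interval of 1.98 to 2.37 (adjusted p = 5.92e-15).

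CDKN1C (ENSG00000129757, chr11:2883213-2885775, minus strand) encodes p57 and is an imprinted gene, expressed mainly from the maternal copy. Vehicle samples held 8.88, 10.9 and 11.7 TMM CPM and nutlin samples 17.1, 18.6 and 21.2. The groups were apart, with little spread within either. The LFC was 0.83 ± 0.058 (SE), a 1.78-fold rise (adjusted p = 1.71e-13).

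CDKN2A (ENSG00000147889, chr9:21967752-21995301, minus strand) encodes p16INK4a and ARF. Its values were 109, 133 and 153 TMM CPM in vehicle and 73.8, 76.2 and 94.7 in nutlin. Nutlin replicate 6 was the closest to vehicle, and still below every vehicle sample. The LFC was −0.72 ± 0.057 (SE), 1.65-fold lower in nutlin (adjusted p = 2.48e-12). On the opposite strand CDKN2B-AS1, a lncRNA, shares 593 of the 3885 exon bases of CDKN2A, and since counting is not stated to have used strand, reads from these bases cannot be assigned with certainty. CDKN2B-AS1 was far lower, with means of 5.06 TMM CPM in vehicle and 3.91 in nutlin.

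CDKN2B (ENSG00000147883, chr9:22002903-22009305, minus strand), the neighbour of CDKN2A, encodes p15INK4b. It rose, whereas CDKN2A fell. Vehicle samples held 2.52, 3.29 and 3.68 TMM CPM and nutlin samples 5.27, 8.94 and 10.3. Nutlin replicate 4 was low within its group, and the groups did not overlap. The LFC was 1.45 ± 0.101 (SE), a 2.74-fold rise (adjusted p = 1.45e-13).

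CDKN2C (ENSG00000123080, chr1:50960745-50974634, plus strand) encodes p18INK4c and fell the most. Vehicle samples held 3.56, 4.62 and 6.47 TMM CPM and nutlin samples 0.494, 0.721 and 0.853, which is below 1 TMM CPM in every nutlin sample. The LFC was −2.73 ± 0.130 (SE), 6.61-fold lower in nutlin with a 95% interval of 5.54 to 7.89 (adjusted p = 1.71e-17). By LFC it had rank 96 from the bottom. ENSG00000290102, on the opposite strand, shares 617 of the 3018 exon bases of CDKN2C (20.4%) and was not analysed here.

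CDKN2D (ENSG00000129355, chr19:10566460-10569059, minus strand) encodes p19INK4d, whose transcript is known to follow the cell cycle. Vehicle samples held 11.6, 13.7 and 18.3 TMM CPM and nutlin samples 6.16, 7.25 and 8.60. All nutlin samples were below all vehicle samples. The LFC was −0.93 ± 0.080 (SE), 1.91-fold lower in nutlin (adjusted p = 1.67e-11).

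To see which transcripts moved, transcripts whose 5′ ends lie within 1000 bases of each other were summed into start groups, numbered from 5′ to 3′ along the gene. Their counts rest on the split that kallisto makes between overlapping transcripts, whose error the files do not give. The 7 genes had 15 such groups, of which 13 were SDE, beside 20.8% of all start groups called up and 16.6% called down. The only start groups not called were the first of CDKN1B and the first of CDKN2C. Both had few counts, as did some that were called, such as start 3 of CDKN2C with 105 in vehicle and 11 in nutlin.

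CDKN2A has 3 start groups. Start 1, with 5′ ends at chr9:21994392-21995301, is the ARF side, and start 2, at chr9:21974827-21974866, is the p16 side. Start 3, at chr9:21970467-21971400, lies further within the gene. It had the highest mean of the 3, with 71.7 TPM in vehicle and 46.9 TPM in nutlin. Start 1 held 51.6, 59.4 and 68.2 TPM (lowest, median, highest) in vehicle and 23.3, 27.0 and 29.8 TPM in nutlin. Start 2 held 42.3, 52.8 and 57.4 TPM in vehicle and 30.8, 36.0 and 41.2 TPM in nutlin. In TPM the ARF side was thus the higher of these 2 in the mean in vehicle and the lower in nutlin. In TMM CPM, which is not per length, it was the lower in both conditions. The means were 46.5 for start 1 and 48.3 for start 2 in vehicle, and 21.0 and 35.1 in nutlin. On that scale start 2 overlapped between the conditions, with 2 nutlin samples inside the vehicle range.

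Both fell, the ARF side with an LFC of −1.15 ± 0.078 (SE, adjusted p = 9.43e-12) and the p16 side with −0.46 ± 0.064 (adjusted p = 1.99e-06). The ratio of start 2 to start 1 within a sample was 0.861 ± 0.0981 (SD, n = 10) in vehicle, with a range of 0.716 to 1.01, and 1.35 ± 0.132 in nutlin, with a range of 1.10 to 1.54. The difference itself was tested as the use of a start group against its gene as a whole, itself included (diffSpliceDGE of edgeR). The log2 use of start 1 fell by 0.43 (adjusted p = 7.54e-05), that of start 2 rose by 0.25 (adjusted p = 0.0248), and start 3 was not called with 0.11 (adjusted p = 0.643). Over all start groups tested, 11.8% were called for use. CDKN2B-AS1 exons share 593 exon bases with transcripts of start 1, 0 with those of start 2 and 0 with those of start 3. The mean of all CDKN2B-AS1 counts, 5.06 TMM CPM in vehicle and 3.91 in nutlin, stands beside 46.5 and 21.0 TMM CPM for start 1, and the part of the overlap in the result was not tested.

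**Figure D4:**
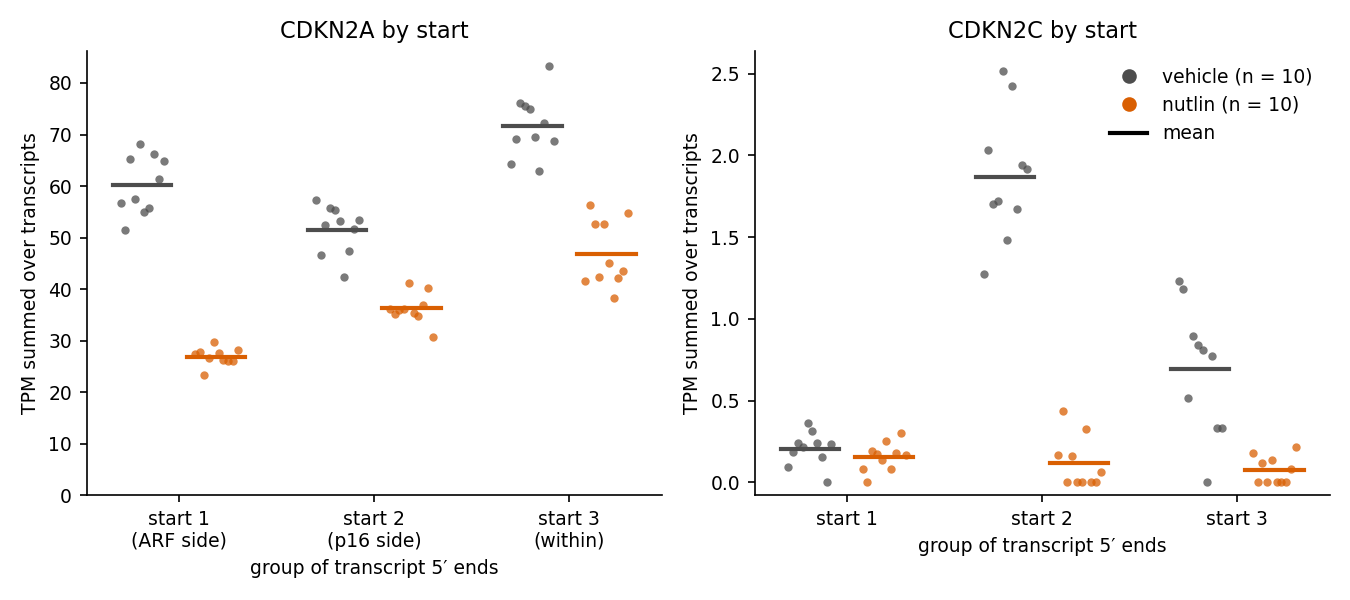
TPM summed over the transcripts of each start group of CDKN2A (left) and CDKN2C (right), with 1 point per sample for 10 vehicle (grey) and 10 nutlin (orange) samples and a line at the mean. For CDKN2A start 1 all nutlin samples are at or below 29.8 TPM and all vehicle samples at or above 51.6 TPM, and for CDKN2C start 2 the mean goes from 1.87 to 0.116 TPM whereas start 1 stays between 0 and 0.363 TPM.

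CDKN2C has 3 start groups of 1 transcript each, and the calls were of the later ones. Start 2, before which the window rich in GC boxes lies, held 524 counts over the 10 vehicle samples and 33 over the 10 nutlin samples, with an LFC of −3.97 ± 0.505 (SE, adjusted p = 5.47e-07). The call held with limma voom, which gave −4.92, and its transcript CDKN2C-203 had −5.43 under the replicate block, so that the size of this fall is uncertain. In TPM its lowest, median and highest values were 1.27, 1.82 and 2.51 in vehicle and 0, 0.032 and 0.438 in nutlin, without overlap. Start 3, whose window held 1 GC box and was 48.8% G and C, held 105 and 11 counts, with an LFC of −3.17 ± 0.629 (adjusted p = 0.000228). The GC boxes thus did not sort the starts that fell from start 1 by their number alone, and their part was not tested. Start 1 held 83 and 66 counts, with an LFC of −0.32 ± 0.455 (adjusted p = 0.635) and a 95% interval of −1.22 to 0.57. The share of start 1 in the TPM of the gene was 7.29% ± 3.60 (SD) in vehicle and 51.9% ± 34.1 in nutlin, with ranges of 0 to 12.1% and 0 to 100% over samples with few counts. Whether the use of the starts differed was not tested, because too few of them passed the count filter of that test.

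In CDKN1A both start groups rose, by an LFC of 6.02 ± 0.258 (SE) for start 1 and 5.66 ± 0.164 for start 2, and their use was not called (adjusted p = 0.591 for start 1). Start 2, which the window shown for CDKN1A precedes, carried most of the transcript, with means of 16.4 TPM in vehicle and 829 TPM in nutlin, beside 2.05 TPM and 126 TPM for start 1. In CDKN2B the 2 start groups rose alike in sign, with LFCs of 1.42 ± 0.143 and 1.60 ± 0.215, and in CDKN1C with 0.82 ± 0.063 and 1.31 ± 0.265. Start 2 of CDKN2B is the single transcript CDKN2B-203, annotated as a retained intron. It held 46.3% of the TPM of the gene in vehicle and 43.7% in nutlin. Start 1 of CDKN2B overlapped between the conditions, with 3.28 TMM CPM in the lowest nutlin sample and 3.45 in the highest vehicle sample. Start 2 of CDKN1C is the transcript CDKN1C-205, also annotated as a retained intron. Its call was lost under the replicate block (LFC 1.28, adjusted p = 0.0649). Start 2 of CDKN1B fell by 1.12 ± 0.071 on the log2 scale, and start 1 had 45 and 55 counts and an LFC of 0.29 ± 0.565. CDKN2D has 1 start group.

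Single transcripts, like the start groups, carry the uncertainty of the split that kallisto makes between overlapping isoforms, which the files do not give. Of the 40 transcripts of the 7 genes, 38 were tested, of which 12 were called up and 9 down, beside 12.7% and 10.7% of all transcripts. All calls went in the direction of their gene. CDKN1A-201 was the main isoform of CDKN1A, with 83.3% of its TPM in vehicle and 76.3% in nutlin. For CDKN2A the ARF transcripts CDKN2A-210 and CDKN2A-214 had LFCs of −1.21 ± 0.14 (SE) and −1.23 ± 0.15, whereas the p16 transcript CDKN2A-201 had −0.43 ± 0.08 and CDKN2A-212, from start 3, −0.63 ± 0.11. The share of the CDKN2A TPM went from 17.7% to 12.5% for CDKN2A-210, from 12.5% to 8.72% for CDKN2A-214 and from 22.8% to 27.5% for CDKN2A-201. For CDKN2A-212, the largest isoform in both conditions, the share was 34.8% in vehicle and 36.4% in nutlin.

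Of the 22 transcripts of these genes tested for use within their gene, 1 was called, beside 7.93% of all transcripts tested. This was CDKN1A-203, which was named after its value was seen, with 1.4% of the CDKN1A TPM in vehicle and 4.2% in nutlin and a log2 difference in use of 1.23 (adjusted p = 0.00673), a call that was lost with diffSplice of limma (adjusted p = 0.224). CDKN2A-214 (adjusted p = 0.0591), CDKN2A-210 (0.149) and CDKN2A-201 (0.237) were not called by diffSpliceDGE and were called by diffSplice.

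The kinases and cyclins on which the inhibitors act fell for the most part. Of 13 CDK and cyclin genes, 10 fell, 2 rose and 1 was not called, with a median LFC of −1.54 beside 0.19 for all genes. As above, 32.3% of all genes tested were called up and 26.5% down, which also holds for the lists that follow. The largest falls were of CDK2, the main partner of p21 and p27, with an LFC of −3.11 ± 0.062 (SE), and of CCNB1, the mitotic cyclin, with −3.06 ± 0.062. The rises were of D-type cyclins, CCND2 with 1.30 ± 0.247 from a mean of 0.64 TMM CPM in vehicle, and CCND1 with 0.45 ± 0.030.

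The partners of the INK4 proteins were named outside the rule, after their values were seen. CDK4 was abundant, with 4027 ± 127 TPM (SD, n = 10) in vehicle and 2561 ± 116 TPM in nutlin and an LFC of −0.68 ± 0.049 (SE). CDK6 held 34.6 ± 7.33 TPM and 43.4 ± 2.90 TPM and was not called (LFC 0.02, adjusted p = 0.828), although with library totals or with an offset for length it was called up. The summed TPM of CDK2, CDK4 and CDK6 went from 4116 ± 120 to 2611 ± 115, and that of the 7 inhibitors, as given above, from 251 to 1103. Nearly all of the kinase sum was CDK4, and most of the inhibitor sum in nutlin was CDKN1A. CDK2 alone went from 54.7 to 6.33 TPM.

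Of 10 genes of pocket proteins and E2F factors, 8 fell, 1 rose and 1 was not called (median LFC −0.53). E2F2 and E2F1, the activating factors that the retinoblastoma protein binds, fell with LFCs of −3.21 ± 0.044 and −3.15 ± 0.045. RBL2, a pocket protein most abundant in resting cells, rose with 0.81 ± 0.039. With library totals 6 fell, 2 rose and 2 were not called, and the LFCs of E2F4 and TFDP2 changed sign.

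Genes for the turnover of the inhibitors fell in 14 of 15 cases and rose in 1 (median LFC −0.54), and with library totals 11 fell, 1 rose and 3 were not called. The largest falls were of DTL, which directs p21 to the CUL4 ligase, with an LFC of −3.03 ± 0.064, and of CDC20, an activator of the anaphase-promoting complex, with −2.42 ± 0.063. The rise was of RNF123, a subunit of the KPC ligase of p27, with 0.31 ± 0.038.

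Of 9 Polycomb genes, whose products repress the INK4 locus, 8 fell and 1 was not called (median LFC −0.63), and with library totals 7 fell and 2 were not called, RING1 losing its call. EZH2, the histone methyltransferase, had an LFC of −1.61 ± 0.046 and its partner SUZ12 of −1.16 ± 0.061. Beside them, on the INK4 locus itself, CDKN2B rose and CDKN2A fell, as given above.

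Of 8 transcription factors known for acting on CIP/KIP genes, 6 rose and 2 fell, with a median LFC of 0.42 beside 0.19 for all genes, of which 32.3% rose and 26.5% fell. KLF4 rose with an LFC of 2.76 ± 0.121 and FOXO1 with 2.15 ± 0.239, the latter from a mean of 0.392 TMM CPM in vehicle. SP1, which binds GC boxes, fell with −0.61 ± 0.031, and FOXO4 with −0.36 ± 0.090, a call lost with library totals.

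**Figure D5:**
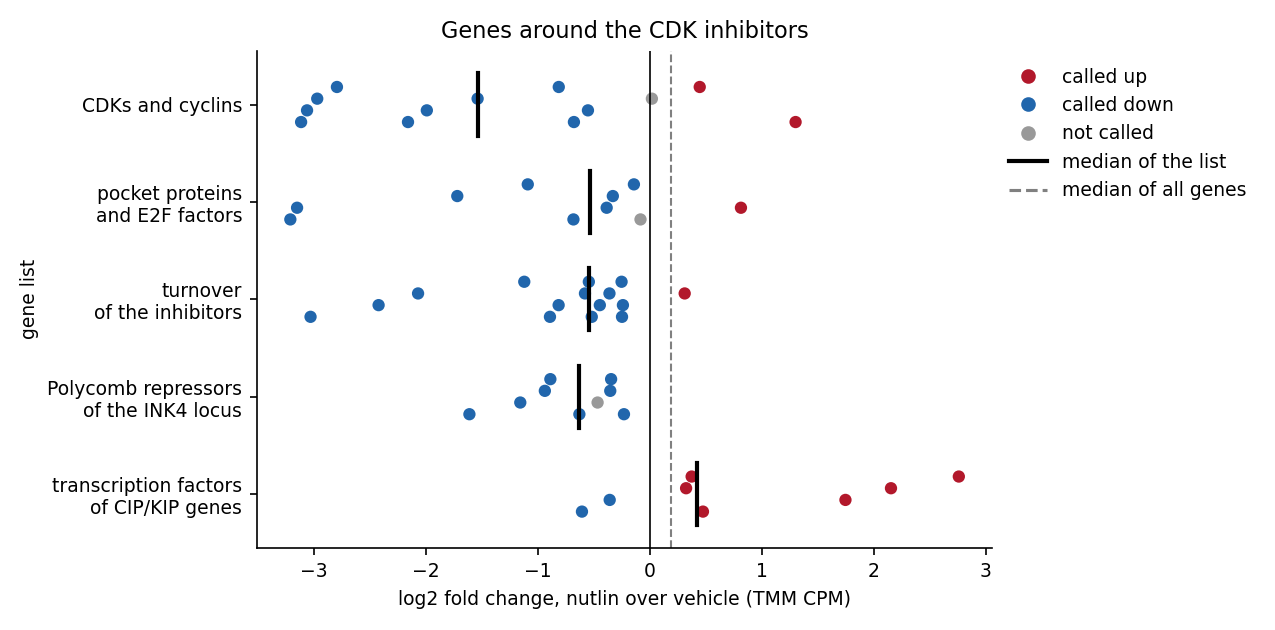
LFC of nutlin over vehicle (TMM CPM) for the genes of 5 lists around the CDK inhibitors, with 1 point per gene (red called up, blue called down, grey not called at 5% FDR), a bar at the median of each list and a dashed line at the median of all genes. The points span from E2F2 at −3.21 to KLF4 at 2.76, and the transcription factors are the only one of the 5 lists with a median above 0, at 0.42.

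Among the noncoding RNAs beside the members, PANDAR, whose gene lies 1334 bases from CDKN1A, had 1 count over the 10 vehicle samples and 82 counts over the 10 nutlin samples, at least 1 in each of the latter. The ratio, scaled to the library totals, was 91.0 with an exact 95% interval of 15.9 to 3639 that covers counting error only. In the edgeR fit used for the other genes, PANDAR had an LFC of 5.19 ± 0.559 (SE), beside 5.68 for CDKN1A. That is a 36.4-fold rise with a 95% interval of 17.0 to 77.8. KCNQ1OT1, the antisense transcript of the imprinted domain that holds CDKN1C, rose with an LFC of 0.85 ± 0.073 (SE), beside 0.83 for CDKN1C. CDKN2B-AS1 fell with −0.37 ± 0.096 (adjusted p = 0.00143), a call that was lost with library totals.

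The nearest tested genes on each side and those overlapping a member were 16 in number, of which 4 were up, 6 were down and 6 were not called, where 32.3% of all genes were up and 26.5% down, so that these counts set the neighbours little apart. GPR19, which overlaps the annotated span of CDKN1B on the other strand, had an LFC of −0.37 ± 0.069 beside −1.11 for CDKN1B. That span begins at chr12:12685498, whereas the CDKN1B transcripts quantified here begin at 12715058 or later. FAF1, 478 bases from CDKN2C, had −0.59 ± 0.046 beside −2.73, and KRI1, 429 bases from CDKN2D, had −0.17 ± 0.034 beside −0.93. On their other sides, LINC01562 beside CDKN2C had 0.55 ± 0.163 and AP1M2 beside CDKN2D 1.62 ± 0.681, the latter with means of 0.0529 TMM CPM in vehicle and 0.178 in nutlin. Beside CDKN1A both neighbours were called up, PANDAR as given above and CPNE5 with 1.64 ± 0.312. CPNE5 had means of 0.311 TMM CPM in vehicle and 0.967 in nutlin. Except for PANDAR, these neighbours were named after their values were seen.

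The genes most like each member over the 20 samples were found by the root mean square (RMS) difference of log2(CPM + 1) after centring on vehicle, among 15161 genes whose mean reached 1 CPM. For CDKN1A they were EPHA2 (RMS 0.307), NECTIN4 (0.409) and BBC3 (0.429), where the median gene had 4.10. EPHA2 and NECTIN4 had means of 0.874 and 0.305 CPM in vehicle and LFCs of 6.61 and 7.41 beside 5.68 for CDKN1A, differences that the offset of 1 CPM makes smaller on this scale. For CDKN2A they were PSMB5, NXT1 and TRMT112 with 0.0548 to 0.0590, and for CDKN1B NUCKS1, NFIA and CLIC4 with 0.0923 to 0.104. For CDKN2C they were ARL6IP1, CKAP2 and NSD2 with 0.131 to 0.134.

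For the other members the closest genes were GAMT and SLC25A6 for CDKN1C (RMS 0.0839 and 0.0927), MOV10, CPM and ABCA12 for CDKN2B (0.147 to 0.149), and ISCA2, PKIG and POLR2C for CDKN2D (0.109 to 0.120). This scale understates the change of genes with few counts such as CDKN2C, whose closest genes had LFCs of −1.69 to −1.79 beside its own −2.73.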

How the data were processed

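RNA-seq of 20 NGP samples was analysed, 10 vehicle and 10 nutlin, grouped by their labels. The authors quantified reads with kallisto v0.42.4 on hg38 transcripts (Ensembl 85) and deposited for each transcript an estimated count, with no normalization, an effective length in bases and a TPM value. Whether counting used strand is not stated. Transcripts were assigned to genes and coordinates by identifier with GENCODE release 44 (GRCh38): 191106 of 198968 (96.05%) had a match, and 7862 without one were dropped. Per gene or start group the estimated counts were added up and rounded, and a feature was tested where both conditions held 1 count or more in total.

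edgeR 4.0.16 (R 4.3.3) was used with TMM, the quasi-likelihood F-test on condition alone, and p-values adjusted by Benjamini-Hochberg over all features at 5% FDR. Use within a gene was tested with diffSpliceDGE on features that passed filterByExpr. SE is the absolute LFC divided by the square root of F, and 95% intervals are LFC ± 1.96 SE. TPM was used for levels only. limma 3.58.1 and DESeq2 1.42.0 gave alternatives. Others were DESeq2 size factors, library totals, filterByExpr with a minimum count of 10, a length offset, 1% FDR, and the replicate number as a block. Start groups, their tests and the fold without vehicle replicates 4 and 10 were added after the data were seen. The scripts were tested on simulated data. Python 3.11.15 with pandas 2.3.3 and matplotlib 3.10.9 was used for summaries and plots.

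The members and lists were chosen with earlier results of these data known. Named were the 7 members and their transcripts with at least 5% of the TPM of the gene in either condition, MDM2, and per list the 2 largest rises and 2 largest falls among SDE genes whose mean reached 1 CPM, or every gene of a list of 5 or fewer. The 3 genes closest in pattern were named per member, except 1 that is not reported here.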

Additional observations from a re-analysis of the deposited data

Results flagged for a closer look

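Within the 7 CDK inhibitor genes and their start groups, 50 groups of 10 samples were examined for a sample that stood far from the others, by its gap to the nearest other sample relative to the range of the group, and 4 were found. Chance alone gives such a sample in about 1 in 20 groups. All 4 were nutlin samples. CDKN2B was at 5.27 TMM CPM in nutlin replicate 4 against 8.33 in the next lowest sample, and its start 1 in the same sample was at 3.28 against 6.11. CDKN2A was at 94.7 TMM CPM in nutlin replicate 6 against 82.5 in the next highest sample. CDKN1C was at 16.9 TPM in nutlin replicate 7 against 14.9 in the next highest sample. None of these samples crossed into the range of the vehicle samples in the gene-level values.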

How the results depend on the processing

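All 7 genes kept their direction and their call under each of the 9 gene-level alternatives, with LFCs from 5.66 to 5.87 for CDKN1A, −1.11 to −0.93 for CDKN1B, 0.81 to 1.02 for CDKN1C, −0.74 to −0.53 for CDKN2A, 1.44 to 1.66 for CDKN2B, −3.03 to −2.54 for CDKN2C and −0.99 to −0.74 for CDKN2D. The log2 ratio of mean CPM of CDKN1A was 5.61 to 5.79 without vehicle replicate 4 or 10.

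The labels do not say whether equal replicate numbers mark pairs of samples. Over the 8 shared numbers the correlation of deviations from the condition means was −0.035 to 0.076, with 0 over 0.1. On average it was 0.0063, beside −0.00054 for the other 92 pairs. No shared deviation was seen, which cannot tell whether samples of equal number were handled together. With the replicate block, over 16 samples, 7519 genes were called up and 6757 down, and all 7 members. The same 16 samples without the block gave 8086 up and 6906 down, and all 7 members. All 20 samples without it gave 8935 and 7340. The block gave 8929 transcripts called up, against 15181, and 1524 transcripts called up for use, against 2495. Under the block the LFC of CDKN1B-205 was 0.21 and that of CDKN2C-201 was 0.19, and the log2 difference in use of CDKN1C-202 was −0.61, all of the opposite sign to the value without it and none of them called. Of the named transcripts 17 were called under the block, against 18, since CDKN1C-205 lost its call. The block has fewer samples, and for transcripts these samples were not fitted without it, so the cause was not tested.

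With diffSplice of limma, 5759 transcripts were called up and 4850 down for use, against 2495 and 1132, and 4 of the named transcripts of the members, against 0 of 15 with diffSpliceDGE, where 3 had an unadjusted p under 0.05. These were CDKN1A-201, CDKN2A-201, CDKN2A-210 and CDKN2A-214. CDKN1C-201 and CDKN1C-202 changed sign in use, to 0.044 and −0.27, uncalled. For start groups diffSplice called 3388 up and 2967 down, against 1480 and 704, and both tools called CDKN2A start 1 and start 2. The tools do not measure use alike, since diffSplice sets a feature against the others of its gene. For CDKN2D-201 and CDKN2D-202 it gave −0.396 and 0.396, where diffSpliceDGE gave −0.182 and 0.265. The part of this in the different calls was not tested. With protein_coding transcripts only, the mean TPM of CDKN1A in nutlin was 846, and that of CDKN2B 0.876 in vehicle and 2.92 in nutlin, by construction, since fewer transcripts were summed. Depth limits CDKN2C in nutlin and all transcripts with few counts, and the error of the split of reads among isoforms is not in the files.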
